A study of Mus musculus with 12 samples.

Results

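The genes described here are 37 members of the unfolded protein response, out of 50559 genes listed by symbol in the deposited count tables of mouse liver RNA-seq. They were chosen by gene symbol, from what each is known to do, with earlier results of these data known. They fall into 4 arms: 15 chaperones and folding enzymes of the endoplasmic reticulum (ER), 7 genes of ER-associated degradation, 5 sensors and the transcription factors tied to them, and 10 genes of the eIF2alpha, ATF4 and CHOP arm. All 37 symbols were found. The livers came from C57BL/6N mice in 4 groups of 3 libraries. NCD mice ate a normal chow diet for 12 weeks and HFD mice a high-fat diet with 60% of its energy from fat for the same time. HFD+C1 and HFD+C2 mice ate the high-fat diet and received C1 or C2 at 5 mg/kg per day by the intraperitoneal route for 12 weeks. The series title calls both compounds inhibitors of CYP4A, a family of fatty acid hydroxylases. The labels give no age, sex or vehicle, and name no vehicle-injected group. They call the libraries of a group biological replicates.

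The unfolded protein response is the set of reactions a cell mounts when unfolded proteins build up in the ER. IRE1alpha (Ern1) splices the Xbp1 mRNA, ATF6 is cut free from the membrane and enters the nucleus, and PERK (Eif2ak3) phosphorylates eIF2alpha (Eif2s1), which lowers translation in general and favours that of ATF4. XBP1 and ATF6 drive chaperone and degradation genes, and ATF4 drives amino acid and stress genes that other eIF2alpha kinases also reach. Hepatocytes secrete most plasma proteins and carry a large ER. Counts per gene cannot tell spliced from unspliced Xbp1 mRNA and measure neither phosphorylation nor cleavage.

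ER stress elements are the best known promoter letters of this response, and they were looked for on both strands in RefSeq promoter sequences (GRCm38.p6) that run from 250 bases before to 50 bases after a gene's start. A sequence was held for 32 of the 37 members. The ER stress element ERSE (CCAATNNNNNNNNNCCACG, N being any base) was found in 9 of these 32 genes and in 0.119% of all 32851 promoters. The shorter ERSE-II (ATTGGNCCACG) was found in Herpud1 and Dnajb11 and in 0.0365% of all promoters. The amino acid response letters that ATF4 is known to bind (CARE, TGATGNAA) were found in Asns, Chac1, Trib3 and Herpud1 and in 3.97% of all promoters. The XBP1 letters TGACGTGG (UPRE) were found in 0 of the 32 and in 0.676% of all promoters. The members with values that stand out below are shown here with their match in capitals, written along the gene's own strand, so that a match on the other strand appears as its reverse complement:
Hspa5, ERSE, chr2:34772010-34772058, plus strand: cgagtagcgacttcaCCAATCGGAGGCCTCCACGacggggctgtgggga
Creld2, ERSE on the other strand, chr15:88819505-88819553, plus strand: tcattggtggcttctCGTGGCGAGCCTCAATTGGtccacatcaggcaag
Derl3, ERSE on the other strand, chr10:75893227-75893275, plus strand: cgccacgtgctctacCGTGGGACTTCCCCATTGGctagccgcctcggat
Herpud1, ERSE-II, chr8:94386362-94386402, plus strand: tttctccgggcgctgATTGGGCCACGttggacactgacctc
Herpud1, CARE on the other strand, chr8:94386302-94386339, plus strand: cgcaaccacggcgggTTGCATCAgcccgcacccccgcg
Asns, CARE, chr6:7693210-7693247, minus strand: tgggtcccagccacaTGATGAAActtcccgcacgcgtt
Chac1, CARE on the other strand, chr2:119351034-119351071, plus strand: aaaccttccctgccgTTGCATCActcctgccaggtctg
A match of letters is a description of the sequence and not evidence that a factor binds there. The map of matches by distance from the start shows ERSE only in chaperone and degradation members among the 32 and CARE mainly in the ATF4 arm, Herpud1 holding both ERSE-II and CARE.

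**Figure D1:**
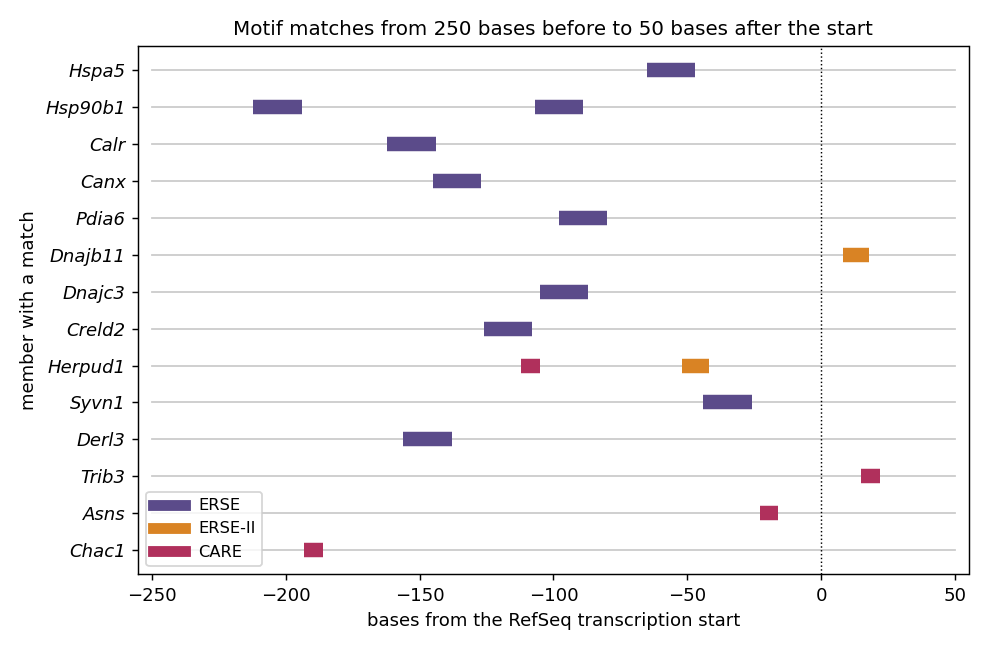
Motif matches in the promoters of the 14 members that hold one; the horizontal axis is the distance in bases from the RefSeq transcription start (dotted line) and each bar spans a match on either strand. Hspa5 has its ERSE at -65 to -47, Herpud1 its ERSE-II at -52 to -42, and Asns its CARE at -23 to -16.

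The libraries were of uneven depth and quality. The shallowest, NCD replicate 2, had 4281210 reads in genes and the deepest, HFD replicate 1, had 32124248. A floor of 3 counts therefore equals 0.701 and 0.0934 CPM in these libraries, CPM being counts scaled to a library's reads in genes. NCD replicate 1 had 58.2% of its reads outside genes and HFD+C2 replicate 1 had 47.1%, while the share lay between 27.3% and 40.7% elsewhere. The summed CPM of 6 hepatocyte markers was 38620 in NCD replicate 1 and from 68410 to 139900 in the others, with albumin (Alb) at 12720 CPM in NCD replicate 1. The markers did not move together. Alb and Hnf4a were lowest in NCD replicate 1, and Apoa1, Ttr, Serpina1c and Cps1 in HFD+C2 replicate 1. In NCD replicate 1 Serpina1c, at 6909 CPM, exceeded every HFD-fed library (1624 to 5257). Cps1, at 800.8, exceeded HFD replicates 1 and 3 (747.8 and 791.5). None of these 6 markers was at 0 in any group. Of 12 plasma and B cell markers, 4 (Igkc, Ighm, Ighg2b and Igha) were at 0 in every library, and the list summed to 46.2 to 503 CPM in NCD, 3.86 to 11.4 with HFD, 5.57 to 25.9 with C1 and 4.28 to 12.3 with C2. The highest of these sums, in NCD replicate 1, came from Igk at 495.2 CPM. Kupffer cell and macrophage markers, 8 genes, summed to 169.2 to 321.8 CPM in NCD, 138.4 to 199.8 with HFD, 240.3 to 306.2 with C1 and 198.1 to 369.1 with C2. Every HFD+C1 library thus exceeded every HFD library in this sum, and its part in the members' levels was not tested. In bulk liver, fewer cells of a type and less RNA per cell cannot be told apart. For some of the results that turn or shift when a library is left out, the value without that library stands beside the one with all libraries.

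Per length of transcript, folding enzymes and chaperones were the most abundant members. In the HFD group the mean CPM per kilobase of the longest coding transcript (GENCODE M21) was 677 for Calr, 522 for Hsp90b1 and 467 for P4hb, a lectin chaperone, the ER's HSP90 and a protein disulfide isomerase. These 3 were also the highest in the other 3 groups. At the low end in HFD were Asns (0.26 CPM per kilobase), Sesn2 (1.02) and Derl3 (1.6). Asns had 5.31 CPM per kilobase in NCD, rank 29 of 37, and rank 37 in HFD.

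The diet comparison asks how the high-fat diet altered these genes. In the quasi-likelihood fit of edgeR, adjusted by Benjamini-Hochberg over all tested genes, 3 of the 37 members (8.11%) passed an adjusted p of 0.05, against 6.03% of the 13864 genes tested. Asns fell and Chac1 and Ddit3 rose, and all 3 belong to the eIF2alpha, ATF4 and CHOP arm. Over all genes the calls split into 2.59% higher and 3.44% lower. At an unadjusted p under 0.05 there were 15 members (40.5%; 8 higher and 7 lower in HFD) against 28.9% of all genes, and the libraries of both groups did not overlap in CPM for 17 members (45.9%) against 38.9%. All 37 members passed the filter of a mean of 10 counts, but Chac1 had a mean of 9.33 counts in NCD and passed through its level in HFD. Without Chac1 the calls were 2 of 36 members (5.56%), and nothing is read from the count of 3. DESeq2 called 9 members (24.3%, against 16.3% of genes with an adjusted p): these 3 with Atf4, Atf5, Atf6, Creld2, Herpud1 and Ppp1r15b. Limma-voom called those 9 with Dnajb9, Ern1 and Sesn2 (32.4%, against 23.2%).

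Asns encodes asparagine synthetase, a target of ATF4 that makes asparagine from aspartate. The gene lies on chr6:7675165-7693209. Its level was 17.4, 5.61 and 9.07 CPM in the NCD libraries and 0.747, 0.391 and 0.437 in those of HFD. With C1 it was 2.08, 1.37 and 1.06 CPM, and with C2 0.648, 3.22 and 2.0 CPM. The NCD and HFD libraries were far apart, and the HFD+C1 libraries all lay between them. The mean fell from 10.7 ± 6.09 CPM (SD, n = 3) to 0.525 ± 0.194 in HFD, which is -4.10 on the log2 scale (standard error, SE, 0.469; edgeR adjusted p = 0.00618). The HFD values rest on 24, 11 and 11 reads, all above the floor of 3. Without HFD replicate 3 the change was -3.97 with an adjusted p of 0.06, which ends the call; without any other single library the call held.

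Chac1, on chr2:119351242-119354326, encodes a glutathione-degrading enzyme induced by ATF4 and CHOP. Its level was 0.71, 1.64 and 0.605 CPM in NCD (7, 7 and 14 reads) and 3.33, 3.98 and 2.54 in HFD. With C1 it was 0.981, 1.24 and 1.75 CPM, and with C2 1.56, 2.12 and 1.88 CPM. Every HFD library exceeded every library of the other 3 groups. The log2 change of Chac1 under the diet was 2.13 (SE 0.459, edgeR adjusted p = 0.0411), on the few NCD reads given above. Ddit3, on chr10:127290793-127296291, encodes CHOP, a transcription factor linked to cell death under ER stress. It stood at 14.3, 14.0 and 13.2 CPM in NCD and 19.6, 19.5 and 22.5 in HFD, a log2 change of 0.79 (SE 0.171, edgeR adjusted p = 0.0413). Its replicates were close within both groups, which did not overlap. The Chac1 and Ddit3 calls were lost without NCD replicate 3 (adjusted p = 0.0746 and 0.0695) and without each HFD library (0.161 to 0.215 for Chac1 and 0.112 to 0.206 for Ddit3), and Ddit3 also when libraries were scaled by their totals alone (0.0682). With the replicate number as a block both calls were lost as well (0.0541 and 0.0746), while Asns kept its call (0.00524).

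**Figure D2:**
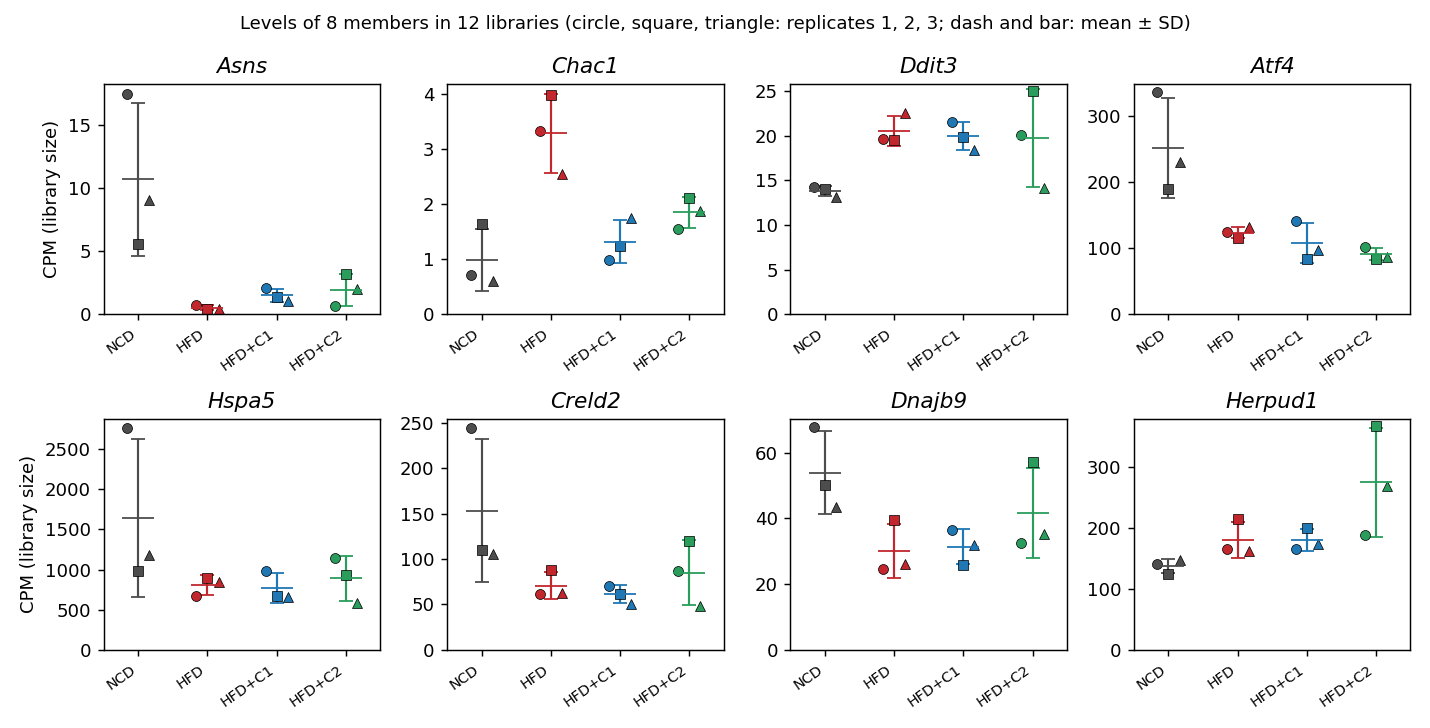
CPM (linear axes from 0) of 8 members in the 12 libraries, with the group mean and SD. Asns is high in NCD and low in all HFD-fed groups, Chac1 is highest in HFD, and NCD replicate 1 stands apart for Hspa5 at 2768 CPM and Creld2 at 244.6 CPM.

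The other members of the eIF2alpha arm went in both directions under the diet, and none passed. Atf4, the central transcription factor of the arm, was at 336, 189 and 231 CPM in NCD against 124, 115 and 132 in HFD, a log2 change of -0.80 (SE 0.217, edgeR adjusted p = 0.0621). The Atf4 groups did not overlap, with NCD replicate 1 the highest of the 12 libraries. Without that library Atf4 fell by 0.615 on the log2 scale with an adjusted p of 0.0235, and it also passed when libraries were scaled by their totals alone (-1.03, adjusted p = 0.0405). Atf5, a relative of Atf4, was at 161, 140 and 148 CPM in NCD and 207, 160 and 221 in HFD (log2 change 0.61, adjusted p = 0.0882). Atf5 passed without NCD replicate 1, with a change of 0.596 and an adjusted p of 0.0432, but by library totals its change was 0.38 with an adjusted p of 0.194. Eif2s1, the eIF2alpha subunit itself, had a log2 change of 0.82 (adjusted p = 0.155), from 16.7, 35.04 and 42.4 CPM in NCD to 42.7, 56.4 and 47.2 in HFD. Its lowest value was in NCD replicate 1, and the change was 0.461 without that library. Sesn2, a stress-induced inhibitor of mTORC1 signalling, had a log2 change of 0.81 (adjusted p = 0.152), and Ppp1r15b, a constitutive partner of the eIF2alpha phosphatase, one of -0.52 (adjusted p = 0.097). Ppp1r15a (GADD34), the inducible partner of that phosphatase, had a change of 0.04 with a 95% interval from -0.498 to 0.581. The sign of the Ppp1r15a change turned under several settings. The 10 genes of the arm had a median log2 change of 0.381, with 7 higher and 3 lower, beside a median of -0.0216 over all genes tested. Without NCD replicate 1 the split was 5 higher and 5 lower with a median of 0.216, by library totals 5 and 5 with 0.16, and without HFD replicate 1 5 and 5 with 0.236.

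In the chaperone arm 11 of 15 genes were lower in HFD and 4 higher, with a median log2 change of -0.246. Of the 15, 0 passed the adjusted threshold, against 6.03% of all genes. At an unadjusted p under 0.05 there were 4 of the 15, all lower, against 28.9% of all genes in either direction, and nothing is read from this count. The lowest adjusted p in the arm was 0.106. DESeq2 called Creld2 (adjusted p = 0.0464), and limma-voom Creld2 (0.0143) and Dnajb9 (0.0152). Hspa5 encodes BiP, the HSP70 chaperone of the ER that holds the 3 sensors inactive. Its level was 2768, 977 and 1182 CPM in NCD and 666, 900 and 846 in HFD. With C1 it was 988, 667 and 656 CPM, and with C2 1146, 936 and 586 CPM. All NCD libraries lay above all HFD libraries in CPM, by a small margin apart from NCD replicate 1. After division by TMM factors NCD replicate 2 lay below HFD replicate 2. The log2 change was -0.79 (SE 0.347, edgeR adjusted p = 0.173) and -0.279 without NCD replicate 1 (adjusted p = 0.303). Creld2, an ER-resident chaperone-like protein, was at 245, 110 and 105 CPM in NCD and 61.3, 87.8 and 63.1 in HFD, with no overlap. Its change was -0.88 (SE 0.304, adjusted p = 0.106), or -0.459 without NCD replicate 1. Dnajb9 (ERdj4), a J-domain co-chaperone of BiP, was at 68, 50.2 and 43.4 CPM in NCD and 24.6, 39.4 and 26.3 in HFD. Its change was -0.62 with all libraries (adjusted p = 0.113) and -0.484 without NCD replicate 1. Pdia3 (ERp57), the disulfide isomerase that works with calreticulin, had a change of -0.56 (adjusted p = 0.139), from 1379, 831 and 870 CPM in NCD to 523, 616 and 650 in HFD; without NCD replicate 1 it was -0.361.

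NCD replicate 1 held the highest level of the 12 libraries for 9 of the 15 chaperones. The summed chaperone level was 12850, 9053 and 9123 CPM in NCD and 6818, 8279 and 7823 in HFD, so that the groups did not overlap when scaled by library totals. Divided by TMM factors they did, with NCD replicate 2 at 8193 and HFD replicate 2 at 8254. Without NCD replicate 1 the median log2 change was -0.0974, again with 11 lower and 4 higher, although Hsp90b1 turned to 0.00788 and P4hb to -0.191. By library totals the median was -0.477 with 13 lower and 2 higher. With HFD replicate 1 or 3 dropped, 0 of the 15 had an unadjusted p under 0.05, against 17% and 19.3% of all genes. NCD replicate 1 also had the lowest hepatocyte marker sum, the highest plasma and B cell sum and the largest share of reads outside genes, as given above; their part in its chaperone levels was not tested.

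Members of ER-associated degradation, which carries misfolded proteins out of the ER to the proteasome, also split. Herpud1, an ER membrane protein that organises the degradation complex, was at 140, 124 and 148 CPM in NCD and 165, 215 and 162 in HFD, a log2 change of 0.60 (SE 0.183, edgeR adjusted p = 0.08). The groups did not overlap, and without NCD replicate 1 the change of 0.551 passed at 0.0474, but by library totals it was 0.386 with an adjusted p of 0.187. Derl3, the inducible derlin, was at 0.71, 1.64 and 0.864 CPM in NCD and 1.99, 2.88 and 1.47 in HFD (log2 change 1.28, adjusted p = 0.14), on 7, 7 and 20 reads in NCD. Sel1l, the scaffold of the HRD1 ubiquitin ligase, and Edem1, which marks glycoproteins for disposal, had log2 changes of -0.48 and -0.41 (adjusted p = 0.194 and 0.231). In CPM the groups did not overlap for either gene. With TMM factors applied they did for Edem1, NCD replicate 2 lying below HFD replicate 3. Without NCD replicate 1 the changes were -0.236 for Sel1l and -0.223 for Edem1. The 7 genes had 2 higher and 5 lower in HFD with a median log2 change of -0.197, against 3 higher, 4 lower and -0.0735 without NCD replicate 1, and -0.395 without NCD replicate 2. By library totals the median was -0.429, again with 2 higher and 5 lower. With no filter on low counts it was 0.00668, with 4 higher and 3 lower.

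Among the sensors, Atf6 was at 33.0, 35.3 and 35.5 CPM in NCD and 41.3, 44.5 and 45.7 in HFD. The groups were tight and apart, and the log2 change was 0.55 (SE 0.162, edgeR adjusted p = 0.0747). By library totals it was 0.336 with an adjusted p of 0.178, while DESeq2 (0.0143), limma-voom (0.0209), edgeR with no filter (0.0327) and edgeR with all 12 libraries (0.0193) called it. Ern1 (-0.40), Xbp1 (-0.07), Eif2ak3 (0.26) and Creb3l3 (0.23), the last a liver factor activated by cleavage like ATF6, had adjusted p from 0.311 to 0.837. Limma-voom called Ern1 lower (-0.571, adjusted p = 0.035). Without NCD replicate 1, Eif2ak3 was at -0.0834 and Creb3l3 at 0.047, and the 5 genes of the arm went from 3 higher and 2 lower to 2 higher and 3 lower. Without NCD replicate 2, Eif2ak3 was at 0.741, Creb3l3 at 0.359 and Ern1 at -0.239. The Ern1 change was also -0.241 when HFD replicate 1 was dropped and -0.655 when HFD replicate 2 was. The 95% interval of Xbp1 ran from -0.521 to 0.379. Total Xbp1 mRNA was at 127, 148 and 134 CPM in NCD and 97.8, 142 and 98.3 in HFD, and the groups overlapped.

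**Figure D3:**
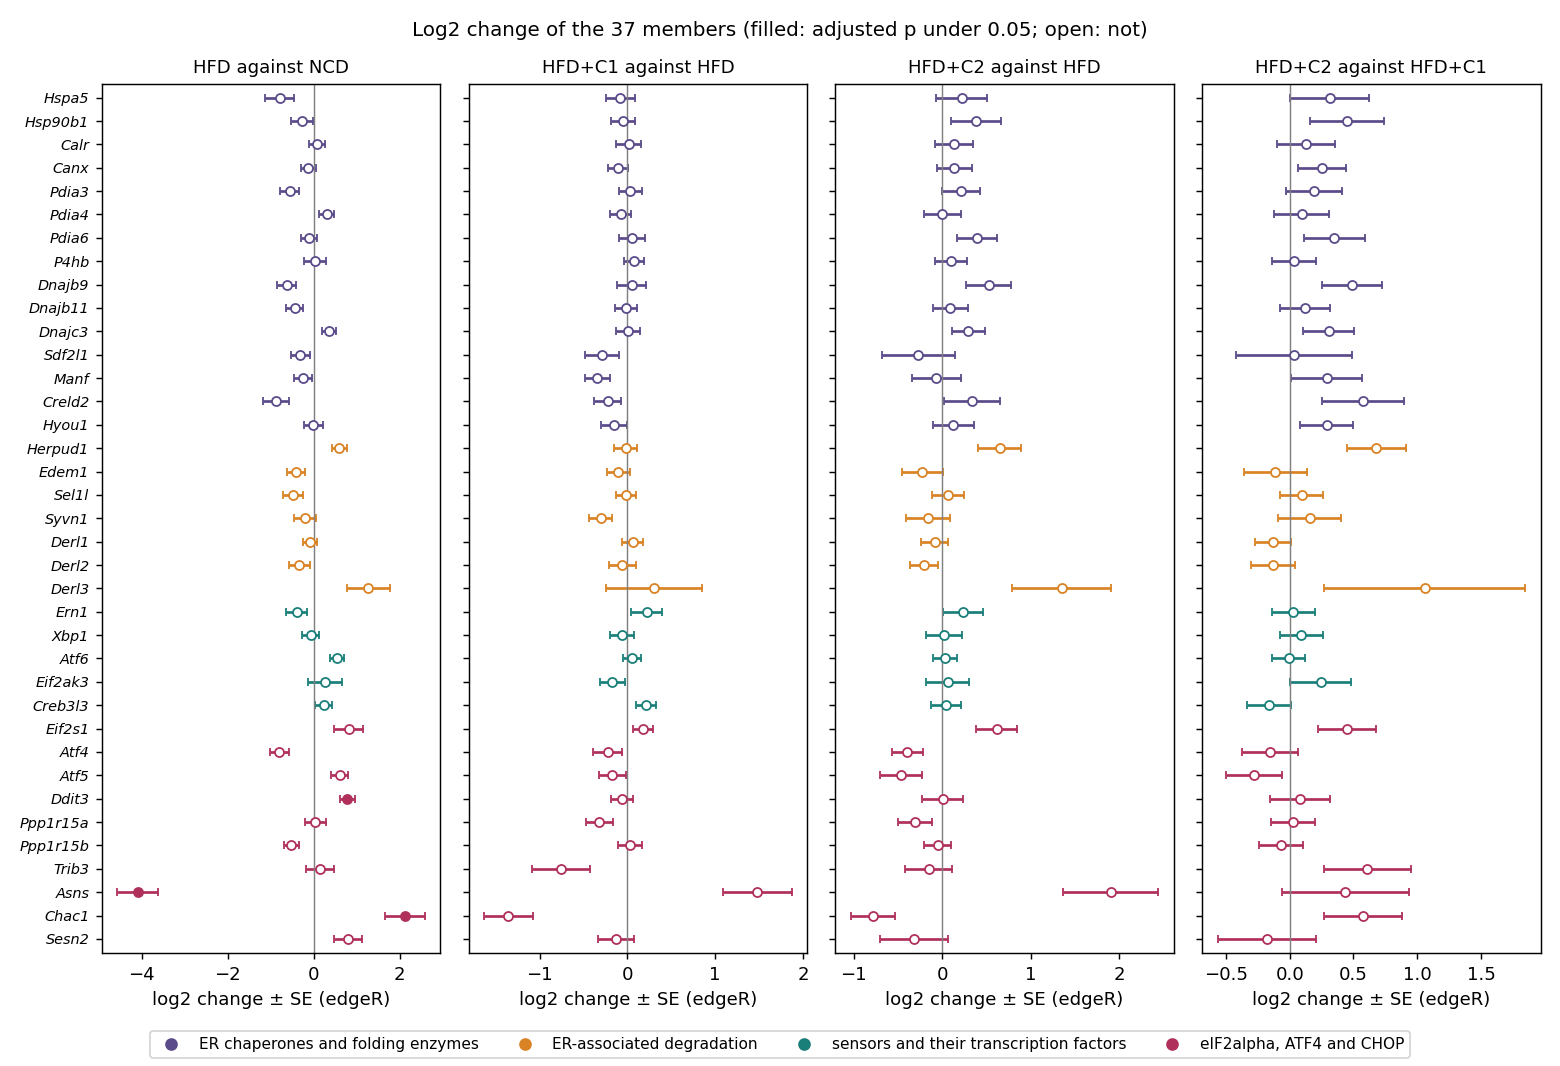
Log2 change with its SE (edgeR, horizontal axes differ between panels) of each of the 37 members in the 4 comparisons, coloured by arm; filled points passed an adjusted p of 0.05. Filled points appear only for Ddit3, Asns and Chac1 and only under the diet; under both compounds Asns lies to the right of 0 and Chac1 to the left.

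The sign of smaller diet changes depends on the scaling. TMM, used here, put the median log2 change of all tested genes at -0.0216 with 48.5% of genes higher in HFD. Scaling by library totals put that median at -0.24 with 35.2% higher, and the members' median at -0.299 in place of -0.0797, with 12 higher and 25 lower in place of 16 and 21. All 15 members at an unadjusted p under 0.05 kept their sign under both scalings, as the plot of settings shows. With no filter on low counts the members' median was 0.0948, with 22 higher and 15 lower, and 7 of the 15 chaperones were higher. Over all 14 alternatives 25 of the 37 members kept their sign.

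**Figure D4:**
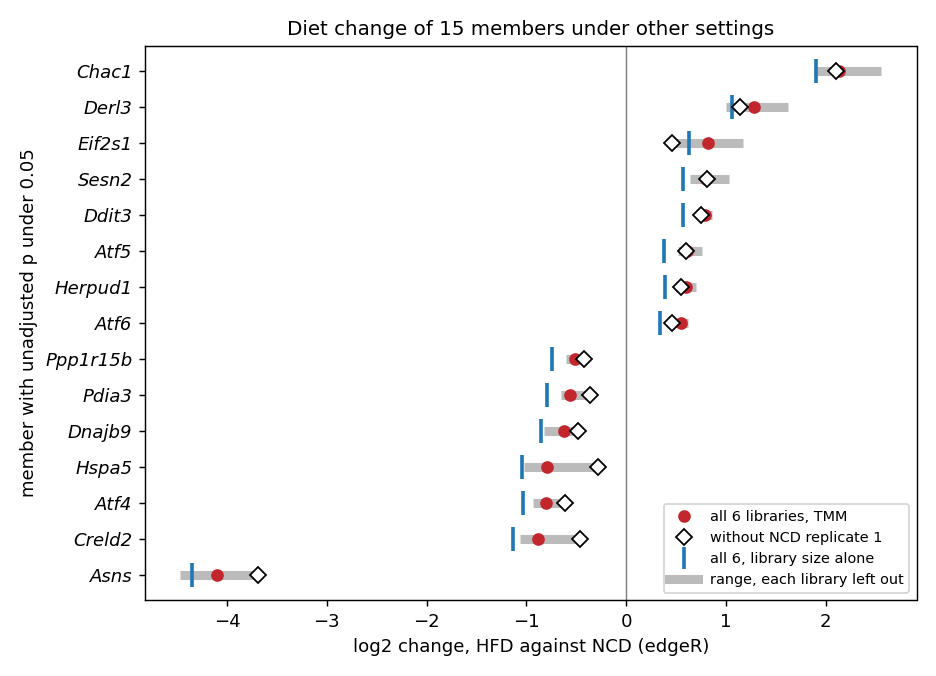
Log2 change under the diet of the 15 members with an unadjusted p under 0.05, by edgeR with all libraries (red), without NCD replicate 1 (open diamonds), with library totals as the scaling (blue ticks) and over all fits that leave out a library (grey range). No member crosses 0, and Hspa5 moves from -0.792 to -0.279 without NCD replicate 1.

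The C1 comparison asks what C1 altered in mice on the high-fat diet. No member passed (0 of 37, against 0.0524% of 13358 genes tested), 5 had an unadjusted p under 0.05 (13.5%, against 7.75%), and 4 did not overlap between the groups (10.8%, against 12.1%). Chac1 had the smallest p of the members: its mean was 1.32 ± 0.391 CPM (SD, n = 3) with C1 and 3.29 ± 0.723 without, a log2 change of -1.36 (SE 0.276, 95% interval from -1.95 to -0.76, edgeR adjusted p = 0.136). All 3 HFD+C1 libraries lay below all 3 HFD libraries, and DESeq2 called this difference with an adjusted p of 0.0234, the only member it called (2.7%, against 0.52% of genes with an adjusted p); limma-voom called 0 (against 0.374%). Asns was higher in every HFD+C1 library than in any HFD library, with a mean of 1.5 ± 0.52 CPM and a log2 change of 1.48 (SE 0.393, adjusted p = 0.303). Its level stayed below that of every NCD library.

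The other 3 members at an unadjusted p under 0.05 were lower with C1. Trib3, a pseudokinase induced by ATF4 and CHOP that restrains AKT signalling, was at 6.13, 3.38 and 4.56 CPM in HFD and 1.7, 4.42 and 2.44 in HFD+C1, so the groups overlapped (log2 change -0.75, edgeR adjusted p = 0.629). The change was -0.465 without HFD+C1 replicate 1, -1.25 without HFD+C1 replicate 2 and -0.473 without HFD replicate 1. Manf, a secreted ER stress protein, had a change of -0.34 (adjusted p = 0.582) and Syvn1 (HRD1), the ubiquitin ligase of ER-associated degradation, one of -0.31 (adjusted p = 0.633). Hspa5 had a change of -0.08 with a 95% interval from -0.431 to 0.27, and Ddit3 one of -0.06 with an interval from -0.331 to 0.203. For 33 of the 37 members the 95% interval lay within 1 on the log2 scale in both directions, the others being Derl3, Trib3, Asns and Chac1. The median log2 change was -0.0611 over the members, with 14 higher and 23 lower, and 0.00625 over all genes tested. Without HFD+C1 replicate 3 the members' median was 0.0117 with 22 higher and 15 lower, and the signs of the Hspa5 and Ddit3 changes turned as well.

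C2 was compared with HFD in the same way. No member passed (0 of 37, against 0.0222% of 13503 genes tested), 5 had an unadjusted p under 0.05 (13.5%, against 6.89%), and 5 did not overlap (13.5%, against 13% of genes). DESeq2 called 0 members (against 0.301% of genes with an adjusted p) and limma-voom 1, Asns (2.7%, against 0.4%). Asns had a mean of 1.96 ± 1.28 CPM (SD, n = 3), and HFD+C2 replicate 1 lay within the HFD range. Its log2 change was 1.90 (SE 0.539, edgeR adjusted p = 0.695), and without HFD+C2 replicate 1 it passed with 2.29 and an adjusted p of 0.0299. Chac1 was lower in every HFD+C2 library than in any HFD library, with a change of -0.78 (SE 0.249, adjusted p = 0.695). Both compound comparisons and the diet comparison share the HFD libraries, so the values of Asns and Chac1 in them are not independent of each other.

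Herpud1 was at 190, 367 and 269 CPM in HFD+C2 against 165, 215 and 162 in HFD, a log2 change of 0.65 (SE 0.239, edgeR adjusted p = 0.695). The highest value was in HFD+C2 replicate 2, and without that library the change was 0.37. Derl3 was at 5.27, 8.66 and 1.36 CPM with C2 and ranged from 0.868 to 5.83 with C1. The log2 change with C2 was 1.35 (adjusted p = 0.695), or 0.746 without HFD+C2 replicate 2. Both compound groups held at least 1 library above the HFD range of 1.47 to 2.88 CPM and at least 1 below it. Derl3 is abundant in secretory cells such as those of the pancreas. Of 11 acinar markers 5 (Prss1, Prss2, Amy2a5, Try4 and Try5) were at 0 in every library. Cela2a, Cpa1, Ctrb1, Pnlip and Cel were found in some libraries, at 0.304 CPM or less. The list's sum, nearly all Cela1, was 34.3 to 56.1 CPM in NCD, 24 to 40.6 with HFD, 20.9 to 49.2 with C1 and 26.2 to 34.9 with C2. Any part of such cells in the Derl3 levels was not tested. Eif2s1 was at 91.7, 64.5 and 57.4 CPM in HFD+C2 and did not overlap with HFD (log2 change 0.61, adjusted p = 0.695). Its highest value was in HFD+C2 replicate 1, and without that library the change was 0.32. Atf4 was at 101, 84.4 and 87.4 CPM, below every HFD library by library totals, with a change of -0.39 (edgeR adjusted p = 0.695). Divided by TMM factors, HFD+C2 replicate 1 lay above HFD replicate 2 for Atf4, so the groups overlapped.

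Chaperones were mostly higher with C2 than in HFD, at 13 of 15 with a median log2 change of 0.139, none at an unadjusted p under 0.05, beside 52.2% higher and a median of 0.0163 over all genes tested. Their summed level of 9104, 9244 and 6915 CPM overlapped with the HFD range. HFD+C2 replicate 2 was the highest library of its group for 11 of the 15 chaperones and replicate 3 the lowest for 10, in CPM. After TMM scaling the chaperone sum was highest in replicate 1, at 10550 against 9917 in replicate 2 and 6806 in replicate 3. Replicate 1 had the lowest hepatocyte marker sum after NCD replicate 1, at 68410 CPM. It also had the highest Kupffer cell and macrophage marker sum of all libraries, at 369.1 CPM. The part of these in its levels was not tested. Without replicate 1 the log2 change of Hspa5 went from 0.221 to -0.0688 and that of Hsp90b1 from 0.382 to 0.116, with 12 chaperones higher and 3 lower and a median of 0.107. Without replicate 2 the split was 10 higher and 5 lower with a median of 0.0536. Without replicate 3 it was 14 higher and 1 lower with a median of 0.28, and 5 chaperones had an unadjusted p under 0.05, all higher, against 9.23% of all genes in either direction, with a smallest adjusted p of 0.529. The median was 0.106, 0.219 and 0.215 with HFD replicates 1, 2 and 3 dropped in turn, and 0.0824 by library totals.

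**Figure D5:**
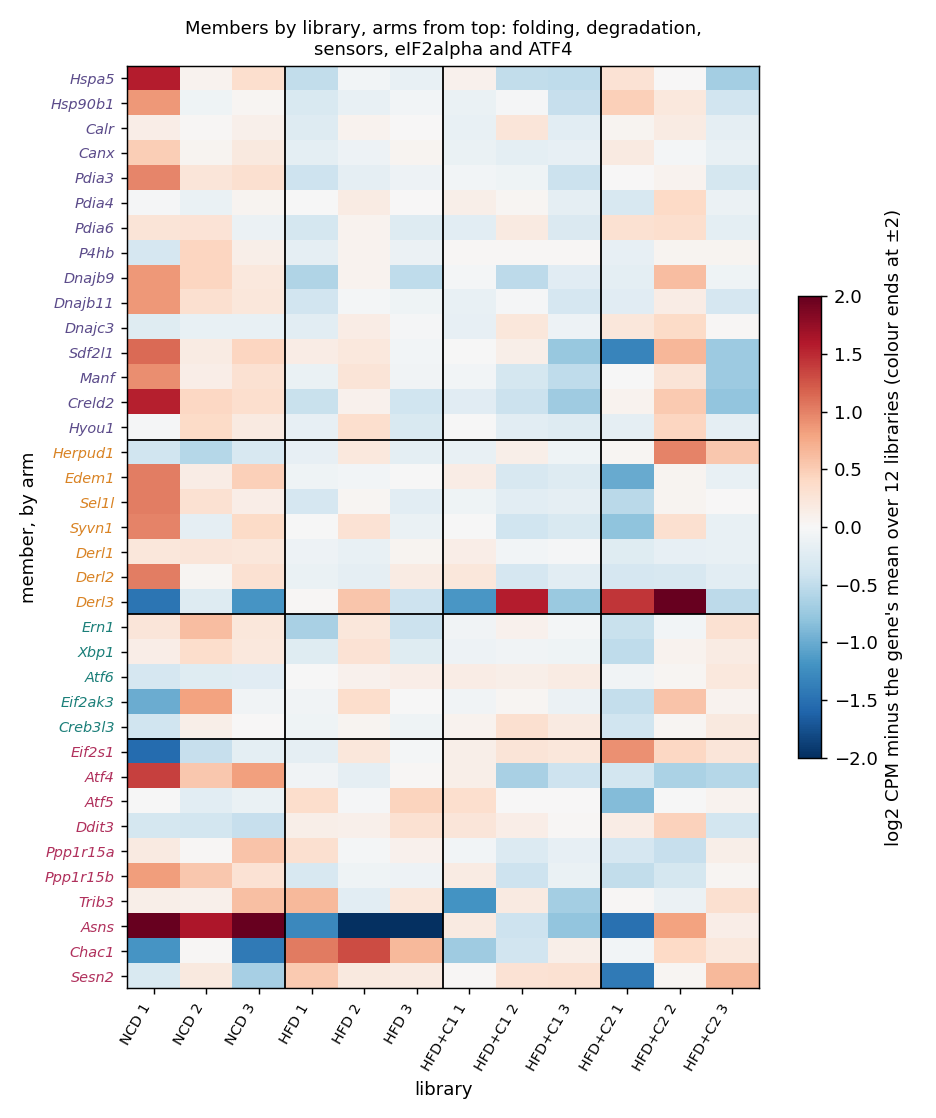
Log2 CPM of the 37 members (rows, by arm) in the 12 libraries (columns) minus each gene's mean over the libraries; red is higher, blue lower, and colours end at 2 in both directions. NCD replicate 1 is red across much of the chaperone arm, Asns is blue in the HFD libraries, and HFD+C2 replicates differ among themselves.

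The 2 compounds were given at the same dose, route and time, so HFD+C2 was compared directly with HFD+C1 as the only pair of compounds. None of the 37 members passed, nor did any of the 13229 genes tested (0%), by edgeR, DESeq2 or limma-voom. At an unadjusted p under 0.05 there was 1 member (2.7%, against 4.6% of genes, 608 by count), and 1 member did not overlap (2.7%, against 11.6%). The former was Herpud1, higher with C2 by 0.68 on the log2 scale (SE 0.234, 95% interval from 0.151 to 1.21, edgeR adjusted p = 0.841), with 1 HFD+C2 library within the HFD+C1 range of 166 to 200 CPM. The latter was Derl1, at 79.1, 84.2 and 84.6 CPM with C2 and 103, 91.0 and 92.4 with C1, where the change was -0.13. Next by p were Dnajb9 (0.49), Eif2s1 (0.45), Chac1 (0.57) and Trib3 (0.61), each higher with C2 and each with a 95% interval that holds 0. Without HFD+C2 replicate 2 the difference was 0.402 for Herpud1 and 0.183 for Dnajb9, without HFD+C2 replicate 1 it was 0.148 for Eif2s1, and without HFD+C1 replicates 1 and 2 in turn it was 0.326 and 1.1 for Trib3. Derl1 stood at -0.0778 without HFD+C1 replicate 1 and -0.0852 without HFD+C2 replicate 3. Asns differed by 0.44 with an interval from -0.692 to 1.57, and Ddit3 by 0.08 with one from -0.446 to 0.609; without HFD+C2 replicate 2 both turned, to -0.162 and -0.123. For 26 of 37 members the interval lay within 1 on the log2 scale, so differences larger than that remain possible for the others, among them Hspa5 (-0.386 to 1.02), Hsp90b1, Derl3 and Asns.

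All 15 chaperones were higher with C2 than with C1, with a median log2 change of 0.289 and values from 0.03 for Sdf2l1 to 0.57 for Creld2, beside a median of 0.0122 and 51.7% higher over all genes tested. The genes are measured in the same libraries and do not count as independent. By library totals 13 of the 15 were higher with a median of 0.19, beside 40.7% of all genes. Without HFD+C2 replicate 2 11 of 15 were higher with a median of 0.111. Without HFD+C2 replicate 1 all 15 were, with a median of 0.181, and without HFD+C2 replicate 3 all 15 were, with a median of 0.441 and 5 at an unadjusted p under 0.05 (against 8.68% of all genes; smallest adjusted p 0.564). The summed chaperone level in HFD+C1 was 7884, 8170 and 6798 CPM, which overlaps that of HFD+C2.

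Of 67 further genes of the pathway, 61 were in the tables and 55 were tested for the diet, of which 2 rose and 1 fell (5.45%, against 6.03% of all genes), and 20 had an unadjusted p under 0.05 (36.4%, against 28.9%). Nupr1, a stress-induced chromatin protein of the ATF4 branch, rose by 2.51 on the log2 scale (edgeR adjusted p = 0.0317), from 0.609, 1.17 and 1.08 CPM in NCD to 5.51, 2.53 and 5.95 in HFD. Its values in NCD replicates 1 and 2 lie near the floor of 3 counts, which equals 0.304 and 0.701 CPM there. Nfe2l2 (NRF2), the oxidative stress factor that PERK can also phosphorylate, rose by 1.12 (adjusted p = 0.0354). Pdia5, a disulfide isomerase linked to ATF6 activation, fell by 0.87 (adjusted p = 0.0302), from 84.8, 82.0 and 83.7 CPM to 38.0, 44.4 and 36.0. These calls were lost when some single libraries were left out: Nupr1 without NCD replicate 3, HFD replicate 1 or HFD replicate 3 (adjusted p from 0.057 to 0.194), Nfe2l2 without any HFD library (0.124 to 0.195), and Pdia5 without NCD replicate 3 or any HFD library (0.0577 to 0.194) and with the replicate block (0.0509). In the compound comparisons 56 were tested and 0 passed by edgeR; at an unadjusted p under 0.05 there were 2 higher and 3 lower with C1 (8.93%, against 7.75% of all genes), and 2 higher and 1 lower with C2 (5.36%, against 6.89%). The smallest p with C1 belonged to Atf3, a factor induced by ATF4, with a log2 change of -1.02 (adjusted p = 0.358), and with C2 to Cebpb, a partner of CHOP, with -1.07 (adjusted p = 0.625). DESeq2 (0.00923), limma-voom (0.0469) and edgeR with no filter (0.000142) called Cebpb.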

How the data were processed

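The authors deposited 3 tables of read counts per gene, 1 for each comparison of HFD with another group, over 12 libraries; the HFD columns were identical in all (0 cells differed), and the values are whole numbers with unequal totals. Per the submitters' processing notes, Trimmomatic 0.39, STAR 2.7, DESeq2 and the mm10 build were used; annotation, strand and counting program are not given in the sources used here. The 4 rows that name no gene (27.3% to 58.2% of reads) were left out. P-values measure the spread between libraries labelled biological replicates. Counts were tested with edgeR 4.0.16 in R 4.3.3 (quasi-likelihood, TMM, genes averaging 10 counts or more in the 6 libraries compared, no covariates), with Benjamini-Hochberg adjustment over all tested genes and a call at an adjusted p under 0.05. The SE is the size of the log2 change divided by the square root of F, and 95% intervals use the test's degrees of freedom. Printed CPM, and overlap of groups unless TMM is named, use reads in genes. Floors cover counting error only. Alternatives were other scalings, DESeq2 1.42.0, limma-voom 3.58.1 with library weights, other filters, all 12 libraries, a replicate block and leaving out each library. Members named singly had a call or an unadjusted p under 0.05, or the 5 smallest p where fewer than 5 did; other pathway genes were named by a call or the 3 smallest p. Others were named after their values were seen. The members and gene lists were chosen with earlier results of these data known. Promoter sequences came from RefSeq GRCm38.p6, which held 32 of 37 members by symbol.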

Additional observations from a re-analysis of the deposited data

How the results depend on the processing

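No log2 change of a member at an unadjusted p under 0.05, nor of Nupr1, Nfe2l2 or Pdia5 under the diet, reversed under the alternatives run; uncalled changes near 0 did. Under the diet Ppp1r15a turned by library totals (-0.173), with limma-voom (-0.104), with a mean of at least 50 counts (-0.0197) and with a library left out (-0.104 to 0.289), Xbp1 with no filter (0.099) and with a library left out (-0.233 to 0.0258), Eif2ak3 with a library left out (-0.0834 to 0.741), P4hb by library totals (-0.173), with limma-voom (-0.149), with a mean of at least 50 counts (-0.0205) and with a library left out (-0.191 to 0.249), and Hsp90b1 with a library left out (-0.417 to 0.00788). With C1, left-out fits spanned -0.295 to 0.0316 for Hspa5 and -0.125 to 0.00354 for Ddit3, and with C2 -0.0688 to 0.493 for Hspa5. Between the compounds Sdf2l1 turned by library totals (-0.0402), with the replicate block (-0.151) and with a library left out (-0.775 to 0.343), Ddit3 by library totals (-0.0114) and with a library left out (-0.123 to 0.316), and Asns with a library left out (-0.162 to 0.81). Under the diet the 3 calls among members became 9 with DESeq2, 12 with limma-voom and library weights, 7 with no filter, 5 with all 12 libraries and 0 to 6 when a library was left out (6 without NCD replicate 1 and 0 without HFD replicate 3). Over all genes the 836 calls (6.03%, beside 8.11% of members) became 3198 of 19590 genes with an adjusted p in DESeq2 (16.3%, beside 24.3% of members), 3211 of 13864 with limma-voom (23.2%, beside 32.4%), 4493 of 35374 with no filter (12.7%, beside 18.9%) and 2418 of 13864 with all 12 libraries (17.4%, beside 13.5%), 524 with a mean of at least 50 counts and 23 to 1838 with a library left out. With C1 the 0 member calls became 1 with DESeq2 (Chac1) and 2 with no filter (Asns and Chac1); calls over all genes went from 7 to 65, 50 and 206 with DESeq2, limma-voom and no filter, 0 with all 12 libraries and 2 to 102 with a library left out. With C2 the 0 became 1 with limma-voom (Asns), 2 with no filter (Asns and Derl3) and 0 to 1 with a library left out; over all genes 3 became 36, 54 and 152, then 0 with all 12 libraries and 0 to 27. Between the compounds 1 member (Derl3) passed with no filter, where 162 genes did in place of 0. The causes were not tested. With the replicate block, the diet gave 1 member call (Asns) and 483 over all genes, and C1 gave 0 and 36; the block changed no other count of calls by over 1.5 times. Same-numbered libraries did not deviate together (correlations from -0.0989 to 0.158), so the numbers were not taken as pairs. The depth of NCD replicate 2 and the 9.33 mean reads of Chac1 in NCD limit the diet values of low genes.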
